A study of Mus musculus with 6 samples.

Results

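Clustered histone genes were described across 6 libraries of a mouse breast carcinoma cell line in which a LINE-1 (L1) retrotransposon can be switched on. Most such genes supply new histones to chromatin while DNA is copied. The set was taken as every gene of the table whose older symbol starts with Hist1h, Hist2h, Hist3h or Hist4h, which gave 68 of 24421 genes. Of these, 6 belong to the linker histone H1 class, 18 to H2A, 19 to H2B (with the pseudogene Hist3h2bb-ps), 12 to H3 and 13 to H4. They lie in 4 groups by their RefSeq positions on GRCm38. These hold 54 genes on chromosome 13 between positions 21715711 and 23934913 and 10 on chromosome 3 between 96219885 and 96270192. The others are 3 genes on chromosome 11 and 1 on chromosome 6.

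The cells were 4T1-tetL1(GLucAI), a stable population rather than a single clone of 4T1, a mouse mammary carcinoma line whose strain is labelled BALB/cfC3H. Both groups carry the same cassette: a recoded mouse L1 with a Gaussia luciferase readout of retrotransposition, transcribed from a doxycycline-responsive promoter that also drives firefly luciferase, and a Tet-On transactivator. Cells either received no doxycycline (the untreated group, called vehicle in one label) or 400 ng/mL of it during 48 h. Each group has 3 libraries, which the study calls biological triplicates. The study asked how L1 expression changes the transcriptome of a tumor cell. No cells without the cassette were among these samples, so an effect of L1 and one of doxycycline itself cannot be told apart.

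The cassette transcript was not analysed here, so no target checked the labels. Nos2 and Cxcl5, inflammatory genes named after their values were seen, stood lower with the doxycycline label, with log2 fold changes of -1.35 and -0.90 (edgeR adjusted p 2.16e-06 and 3.5e-05). Cells that sense retrotransposon nucleic acids are known to raise inflammatory genes. Both genes stood lower where L1 is labelled as switched on, among 283 genes called lower and 121 called higher over the whole table. Other inflammatory genes are not described here. Both were picked by their values, so they cannot decide whether the labels are right. Whether the labels or columns of the groups were exchanged could not be checked here, and an exchange would turn every direction given below. Each direction rests on the labels as deposited, and the second group is called "labelled doxycycline".

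Histones H2A, H2B, H3 and H4 form the core around which DNA is wrapped, and H1 binds the DNA between cores. A cell that copies its genome needs new histones in bulk, and mammals meet that need with many near-identical genes that are transcribed mainly in S phase. Their mRNAs have no poly(A) tail. They end in a short stem-loop that the stem-loop binding protein SLBP holds while the U7 small nuclear RNA particle directs the cut, and the same stem-loop later serves translation and decay. The libraries were made from total RNA depleted of ribosomal RNA, a procedure that keeps such transcripts.

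The stem-loop was searched for in GENCODE transcripts as a perfect stem of 6 bases around a loop of 4 and was found in 46 of the 68 genes. Only stems whose first strand reads GGYYYT, with Y for C or T, were searched for, so the matches resemble each other by that choice. A gene without a match may have a transcript model that ends before it. These sites are shown because the SLBP site is the feature that sets the family apart from other mRNAs. Capitals mark the stem and loop, and lower case the 6 bases on either side. Shown are an H2A gene and its H2B neighbour, a second H2A gene, an H3 gene and 2 H4 genes.
Hist1h2ad: aacaaaGGCTCTTTTCAGAGCCatccac
Hist1h2bf: cccaaaGGCTCTTTTCAGAGCCacctac
Hist1h2ac: cccaaaGGCTCTTTTCAGAGCCcccact
Hist1h3c: aaaaaaGGCTCTTTTAAGAGCCacctaa
Hist1h4d: accaaaGGCCCTTTTCAGGGCCactacc
Hist1h4j: cctaaaGGTCCTTTTCAGGACCaccaca

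The capitals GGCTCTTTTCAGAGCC stood in 26 genes, all of the H1, H2A, H2B or H3 classes, and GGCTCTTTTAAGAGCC in 6 more of the H1, H2B and H3 classes. None of the 12 H4 genes with a stem-loop had either. Of these, 7 carried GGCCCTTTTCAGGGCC, 2 carried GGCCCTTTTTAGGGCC, 2 carried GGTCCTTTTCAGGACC and 1 carried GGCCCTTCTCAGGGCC. The search used one strand only and says nothing of binding. Stem-loops of the searched pattern also stood in transcripts of 169 other genes among 55341.

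Together the clustered histone genes took between 1.22% and 1.37% of all counts. Their summed level was 13584, 13123 and 13574 CPM, the count set to a common depth by the TMM method, in untreated replicates 1 to 3. It was 12105, 12360 and 12994 CPM in the libraries labelled doxycycline. All labelled libraries lay below all untreated ones, and the mean was lower by 7.0% (13427 ± 263 against 12487 ± 458 CPM, SD, n = 3 each). Library totals ran from 31653464 to 43631312 counts and overlapped between groups, and a level of 3 counts, taken as the floor, equals 0.0683 to 0.0944 CPM (counting error alone). The ribosomal precursor Rn45s took 8.83 to 12.11% of counts, with overlap between groups. In bulk RNA, fewer cells in S phase and less histone RNA per cell cannot be told apart.

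H2A and H3 had the largest relative differences in these sums. H2A, which pairs with H2B in the core, summed to 2294, 2290 and 2370 CPM in untreated libraries and to 1929, 1776 and 2218 CPM in the labelled ones. The groups did not overlap, and the mean was lower by 14.8%. H3, the partner of H4, summed to 2389, 2490 and 2462 CPM and then to 1932, 2047 and 2414 CPM, lower by 12.9% with overlap through the third labelled library. H2B stood 5.4% lower (2990 ± 114 against 2829 ± 85.1 CPM), H1 3.1% lower (1631 ± 40.2 against 1580 ± 42.3 CPM) and H4 1.7% lower (4041 ± 134 against 3972 ± 157 CPM, SD, n = 3 each), all with overlapping libraries.

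**Figure D1:**
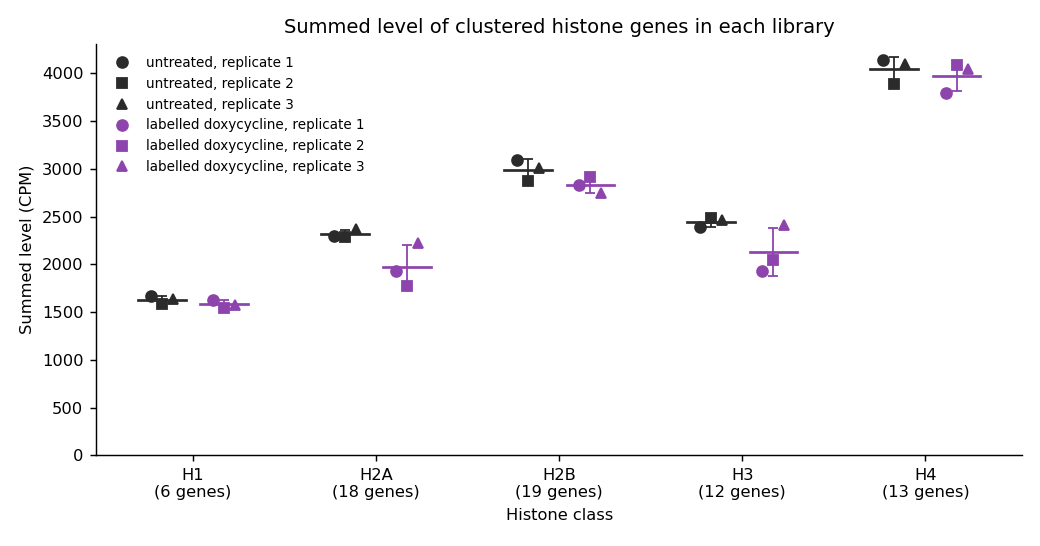
Summed level in CPM (y axis, from 0) of the genes of each histone class (x axis) in each library, with black symbols for untreated and purple for labelled doxycycline libraries, one symbol shape per replicate number, a horizontal line for the mean and bars for the SD (n = 3). The H2A sums are 2290 to 2370 CPM in untreated and 1776 to 2218 CPM in labelled libraries, while the H4 sums of the groups overlap.

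Labelled replicate 3 lay closest to the untreated libraries in H2A and H3. It had the highest level of its group for 12 of 13 tested H2A genes and 9 of 10 tested H3 genes, but for 2 of 16 H2B genes. The ratio of summed H2A to summed H2B was 0.74, 0.80 and 0.79 in untreated libraries and 0.68, 0.61 and 0.81 in labelled ones, so it overlapped. The ratio of H3 to H2B overlapped as well (0.77 to 0.87 against 0.68 to 0.88). Of the 10 ratios between pairs of classes, the ratio of H2A to H4 alone did not overlap, at 0.55, 0.59 and 0.58 in untreated and 0.51, 0.43 and 0.55 in labelled libraries (0.549 as the highest labelled and 0.554 as the lowest untreated value). Groups of 3 libraries that differ at random separate with a probability of 0.1, so 1 of 10 is no more than that share. The ratio of H3 to H4 overlapped through labelled replicate 3 (0.58 to 0.64 against 0.50 to 0.60). H4 made up 29.6 to 30.5% of all clustered histone counts in untreated libraries and 31.1 to 33.0% in labelled ones, without overlap. The H4 sum itself changed by -1.7% with overlap, and the other class sums stood lower by more.

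Gene by gene, 12 of the 56 tested histone genes were lower under the doxycycline label and 0 were higher by the quasi-likelihood test of edgeR, with p-values adjusted by Benjamini-Hochberg over 13084 genes and a threshold of 0.05. Over all tested genes 3.09% were called, 2.16% lower and 0.925% higher. Before adjustment, 17 histone genes had a p under 0.05, each lower, where 16.2% of all tested genes had such a p and 8.95% had it with a lower level, and DESeq2 and limma voom called 13 and 12 lower and 0 higher. The median log2 fold change of the tested histone genes was -0.09, beside 0.0025 for all genes, and 46 of 56 lay below 0, beside 49.2% of all genes. In 17 of them every labelled library lay below every untreated one, against 11.1% of all genes. The count moved with single libraries: 5, 6 and 3 genes were lower without untreated replicates 1, 2 and 3, 9 without labelled replicate 1, and 20 without labelled replicate 3. Without labelled replicate 2, 18 were lower, among them 3 H2B and 2 H4 genes, and 1 was higher (Hist1h4i).

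By class, 9 of 13 tested H2A genes and 3 of 10 H3 genes were lower, against 0 of 16 H2B, 0 of 12 H4 and 0 of 5 H1 genes. Leaving out a library moved the H2A count to between 2 (without untreated replicate 3) and 12 (without labelled replicate 3), with 3, 5 and 6 without untreated replicate 1, untreated replicate 2 and labelled replicate 1. The H3 count moved to 1 without untreated replicate 2 or 3, to 2 without untreated replicate 1 and to 8 without labelled replicate 3. The edgeR test at an unadjusted p under 0.05 gave 10 H2A, 5 H3, 2 H2B, 0 H4 and 0 H1 genes. That p was reached by 16.2% of all tested genes, the share to set beside such counts here and below. The median log2 fold changes were -0.29 for H2A, -0.20 for H3, -0.08 for H2B, -0.02 for H1 and 0.0081 for H4. All 13 H2A and all 10 H3 genes lay below 0, as did 13 of 16 H2B, 4 of 5 H1 and 6 of 12 H4 genes. The H4 median had no stable sign: it was -0.0022 with scaling by library size only, -0.0021 with libraries thinned to the smallest total, and -0.03, -0.0049 and -0.03 without untreated replicate 2, labelled replicate 2 and labelled replicate 3.

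**Figure D2:**
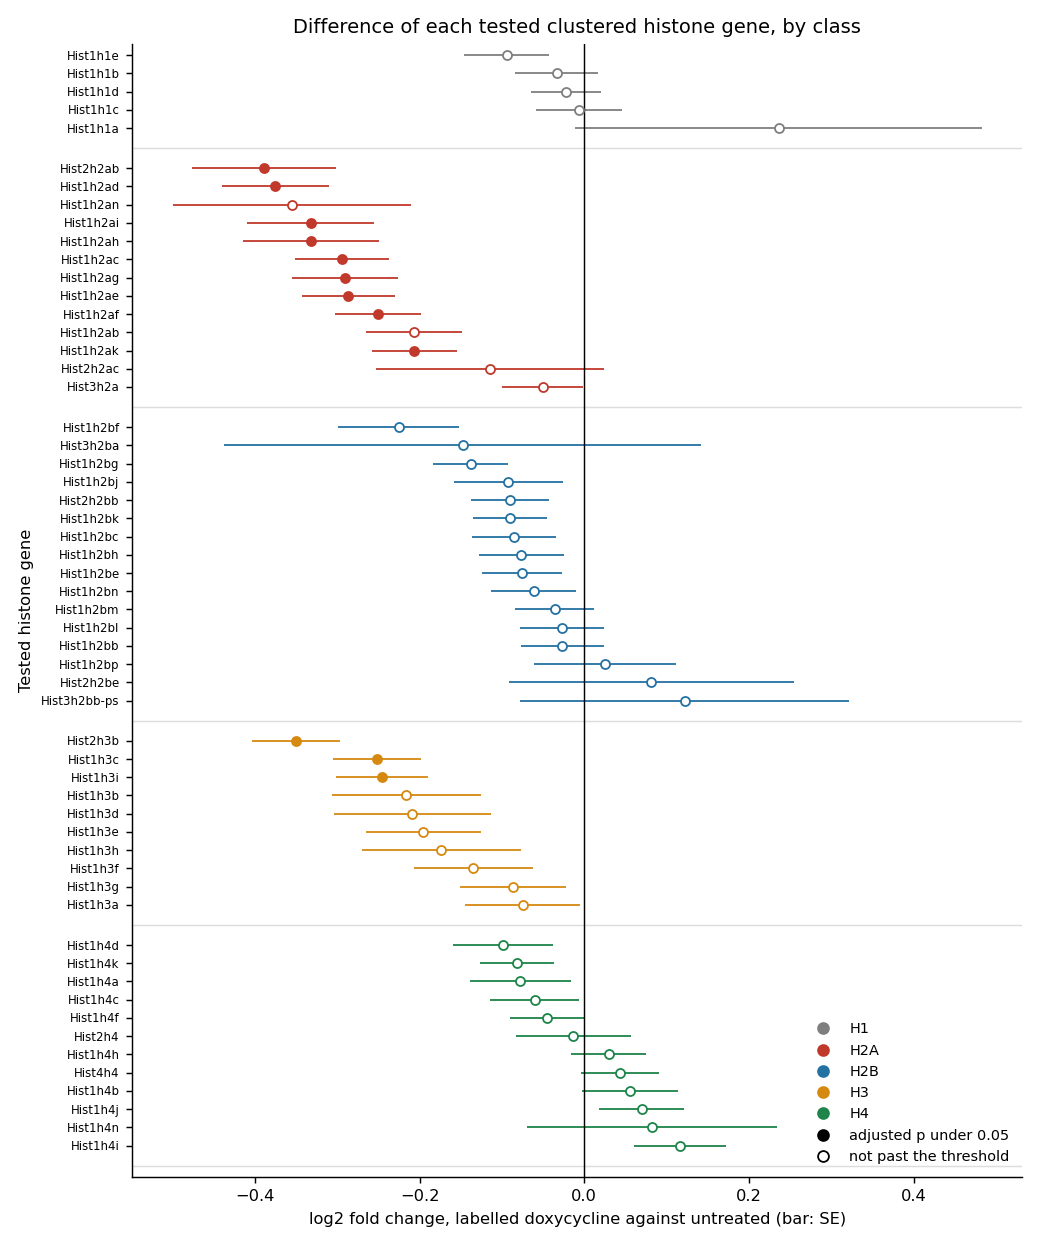
Log2 fold change of each of the 56 tested histone genes (x axis, labelled doxycycline against untreated, bars are SE), grouped by class on the y axis, with filled points for an adjusted p under 0.05. The 12 filled points are 9 H2A and 3 H3 genes, all left of 0, and the H4 genes lie on both sides of 0.

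Hist2h2ab had the lowest log2 fold change of all. This H2A gene of the chromosome 3 group (chr3:96219885-96220354, plus strand, protein-coding) stood at 27.5, 25.6 and 23.2 CPM in untreated libraries and at 19.0, 17.9 and 21.4 CPM in those labelled doxycycline. The groups did not overlap, and the log2 fold change was -0.39 (± 0.09 SE, adjusted p 0.0134 in edgeR). It was lost without untreated replicate 1 and without untreated replicate 2 (highest edgeR adjusted p 0.129). With 47.8 CPM per kilobase it was also the least abundant H2A gene tested.

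Hist1h2ad, an H2A gene of the chromosome 13 group (chr13:23574381-23574915, plus strand, protein-coding), read 129, 134 and 133 CPM in untreated libraries. In those labelled doxycycline it read 99.7, 90.5 and 115 CPM. These groups were apart, with a log2 fold change of -0.38 (± 0.07 SE, adjusted p 0.00196 in edgeR). The call held whichever library was left out (highest edgeR adjusted p 0.0196) and was lost after a correction for GC content and length. Its stem-loop is the first of those printed above.

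Hist2h3b, an H3 gene at chr3:96268654-96269155 on the plus strand, gave the smallest p of the family. Its levels were 249, 242 and 247 CPM in untreated libraries and 175, 198 and 206 CPM in labelled ones. The gap between the groups was wider than either range, and the log2 fold change was -0.35 (± 0.05 SE, adjusted p 0.000377 in edgeR). This call was kept in all 18 alternative fits.

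Hist1h2ac at chr13:23683473-23683959 on the minus strand measured 105, 102 and 106 CPM in untreated libraries and 80.2, 82.2 and 93.4 CPM in the labelled ones (log2 fold change -0.29 ± 0.06 SE, adjusted p 0.00422 in edgeR). Hist1h2ae at chr13:23570663-23571220, also on the minus strand, measured 179, 175 and 187 CPM and then 153, 132 and 158 CPM (log2 fold change -0.29 ± 0.06 SE, adjusted p 0.00536 in edgeR). Both H2A genes had separate groups in these values. Without untreated replicate 3 both calls were lost, with an edgeR adjusted p of 0.0502 for Hist1h2ac and 0.0723 for Hist1h2ae.

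The other 5 H2A genes past the threshold were Hist1h2ai, Hist1h2ah, Hist1h2ag, Hist1h2af and Hist1h2ak. Hist1h2af had 164, 156 and 162 CPM and then 132, 127 and 145 CPM, a log2 fold change of -0.25. Hist1h2ag had 72.1, 74.6 and 72.6 CPM and then 61.1, 53.3 and 64.9 CPM, a log2 fold change of -0.29. In each of the 5 genes the groups did not overlap. Hist1h2ai and Hist1h2ah both gave -0.33, and Hist1h2ak gave the smallest change of those called, -0.21, from 356 ± 8.62 to 308 ± 24.8 CPM (SD, n = 3 each). Hist1h2ah held its call in 1 of the 6 fits that left out a library (edgeR adjusted p up to 0.358), and Hist1h2ak in 2 of them.

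Among the H3 genes, Hist1h3c (chr13:23745042-23745521, minus strand) stood at 256, 256 and 260 CPM in untreated libraries and at 204, 206 and 238 CPM in labelled ones. Its log2 fold change was -0.25 (± 0.05 SE, adjusted p 0.00902 in edgeR). Hist1h3i gave nearly the same size, -0.25 (± 0.06 SE, adjusted p 0.0149 in edgeR), from 156, 158 and 160 CPM to 126, 126 and 148 CPM. Neither gene's groups overlapped. Hist1h3c lost its call without untreated replicate 2 or 3, and Hist1h3i without any one of the 3 untreated libraries. In the other 7 tested H3 genes the log2 fold changes ran from -0.22 (Hist1h3b) to -0.07 (Hist1h3a), and none passed the test.

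**Figure D3:**
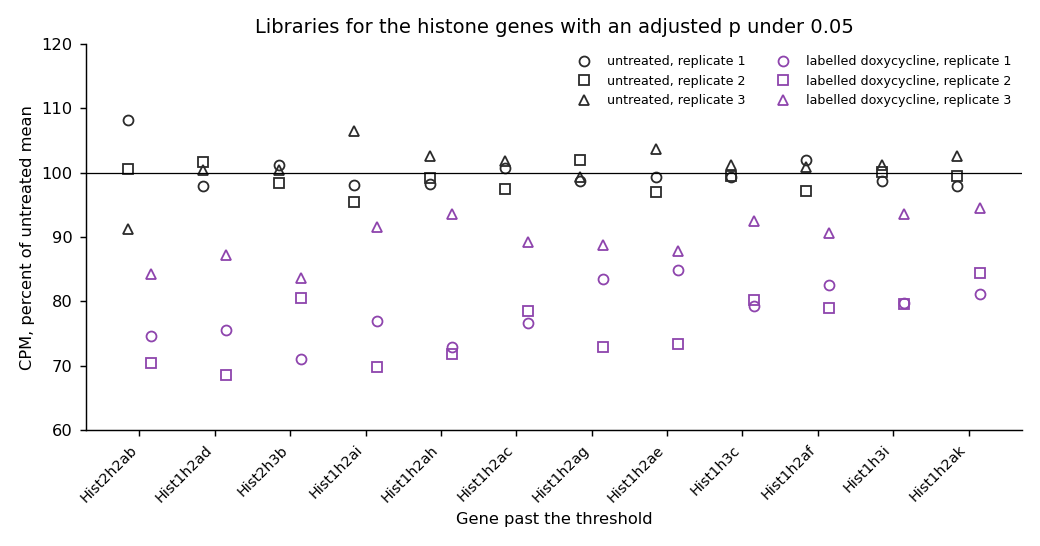
CPM of each library as a percentage of the untreated mean (y axis, drawn from 60 to 120%) for the 12 genes past the threshold (x axis), with black symbols for untreated and purple for labelled doxycycline libraries and one shape per replicate number. Labelled replicate 3 lies at 83.7 to 94.5% of the untreated mean, nearer to 100% than the 68.6 to 84.9% of labelled replicates 1 and 2.

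The 4 H2A genes that did not pass were Hist1h2an, Hist1h2ab, Hist2h2ac and Hist3h2a. Most of the sequence of Hist1h2an also occurs in other genes, as it does for called genes such as Hist1h2ah, Hist1h2ai, Hist1h3i and Hist2h3b. Hist1h2an read 173, 167 and 181 CPM and then 141, 107 and 160 CPM. Its groups did not overlap, and its log2 fold change of -0.35 came with a wide error (± 0.14 SE, adjusted p 0.313 in edgeR). Hist1h2ab, the second most abundant H2A gene per kilobase, gave -0.21 (± 0.06 SE, adjusted p 0.0603 in edgeR) without overlap. Hist2h2ac, the most abundant H2A gene with 824 CPM per kilobase, read 391, 403 and 409 CPM and then 363, 303 and 446 CPM, so labelled replicate 3 was the highest library of all. Hist3h2a on chromosome 11 lay at 98.2 to 105 CPM and at 96.6 to 102 CPM, with overlap (log2 fold change -0.05, edgeR adjusted p 0.671).

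H2B genes lay between -0.23 and 0.12 on the log2 scale of differences, and none passed the test. Hist2h2bb, at 1224 CPM per kilobase the most abundant H2B gene, read 654, 588 and 624 CPM in untreated libraries and 605, 582 and 566 CPM in labelled ones, with overlap (log2 fold change -0.09, edgeR adjusted p 0.353). Hist1h2bg read 515, 490 and 522 CPM and then 451, 483 and 453 CPM. Its groups did not overlap, yet the difference of -0.14 did not pass (± 0.05 SE, adjusted p 0.111 in edgeR). Hist1h2bb gave -0.03 and Hist1h2bf, the lowest of the class, -0.23 (± 0.07 SE, adjusted p 0.107 in edgeR). Without labelled replicate 2, Hist1h2bf, Hist1h2bg and Hist1h2bc passed the threshold. The highest value, 0.12, belonged to the pseudogene Hist3h2bb-ps at 2.24 to 3.62 CPM, and the least abundant gene that was tested was Hist3h2ba at 0.84 to 1.57 CPM.

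H4 genes, whose products join H3 in the core, were the most abundant class. Hist1h4d, with 2299 CPM per kilobase the highest level of the family, read 980, 899 and 988 CPM in untreated libraries and 852, 1001 and 825 CPM in those labelled doxycycline. Its libraries overlapped because labelled replicate 2 was the highest of 6 (log2 fold change -0.10, edgeR adjusted p 0.446), and without that library the gene passed (-0.19, edgeR adjusted p 0.000482). Hist1h4c, with 1045 CPM per kilobase, behaved likewise, with -0.06 over all libraries and -0.13 without labelled replicate 2 (edgeR adjusted p 0.0313). Hist1h4b gave 0.06. Hist1h4i had the highest log2 fold change of the class, 0.12 (± 0.06 SE, adjusted p 0.313 in edgeR). It read 86.9, 79.7 and 82.7 CPM and then 90.2, 84.4 and 95.7 CPM.

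No linker histone gene passed the test. Hist1h1e, with 707 CPM per kilobase the most abundant H1 gene, read 597, 535 and 581 CPM and then 574, 507 and 525 CPM (log2 fold change -0.09, edgeR adjusted p 0.385). Hist1h1c and Hist1h1d followed in level with 486 and 451 CPM per kilobase and log2 fold changes of -0.0063 and -0.02. The highest value of any histone gene tested, 0.24, came from Hist1h1a at 1.28 to 2.79 CPM, where the error was as large (SE 0.25).

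Of the 68 genes, 12 were not tested. The testis histone genes Hist1h1t, Hist1h2aa and Hist1h2ba had at most 0.364 CPM in any library. Hist1h2ba, the most abundant gene that failed the filter on low counts, read 0.36, 0.24 and 0.35 CPM in untreated libraries and 0.13, 0.12 and 0.052 CPM in labelled ones. The other 9 had no count in any library: Hist1h2bq, Hist1h2br, Hist1h2ao, Hist1h2ap, Hist1h4m, Hist2h3c1, Hist2h3c2, Hist2h2aa1 and Hist2h2aa2. Each of these shared between 63.5% and 100% of its 50-base runs with a single other gene. That share reached 87.4% among called genes and 83.2% among tested genes that were not called, so the ranges overlap. How reads that match several genes were counted is not given in the sources used here, so a value of 0 does not show that such a gene was silent.

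H2A and H2B genes often stand head to head, with starts close together and a promoter between them. Of the 10 such pairs in which both genes were tested, 9 join an H2A to an H2B gene. In all 9 the log2 fold change of the H2A gene was below that of its H2B neighbour, by 0.14 to 0.38. Hist1h2ai gave -0.33 and its neighbour Hist1h2bl -0.03. Hist1h2ad gave -0.38 and Hist1h2bf -0.23, with starts 174 bases apart. The remaining pair joins Hist1h2bh (-0.08) to Hist1h3f (-0.13). Within single libraries the log2 ratio of a pair's genes overlapped between the groups in 10 of 10 pairs, with two-sided exact permutation p-values from 0.2 to 0.8 where 0.1 is the smallest that 3 against 3 libraries allow. Among 727 head-to-head pairs of all tested genes the ratio separated the groups in 16%.

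**Figure D4:**
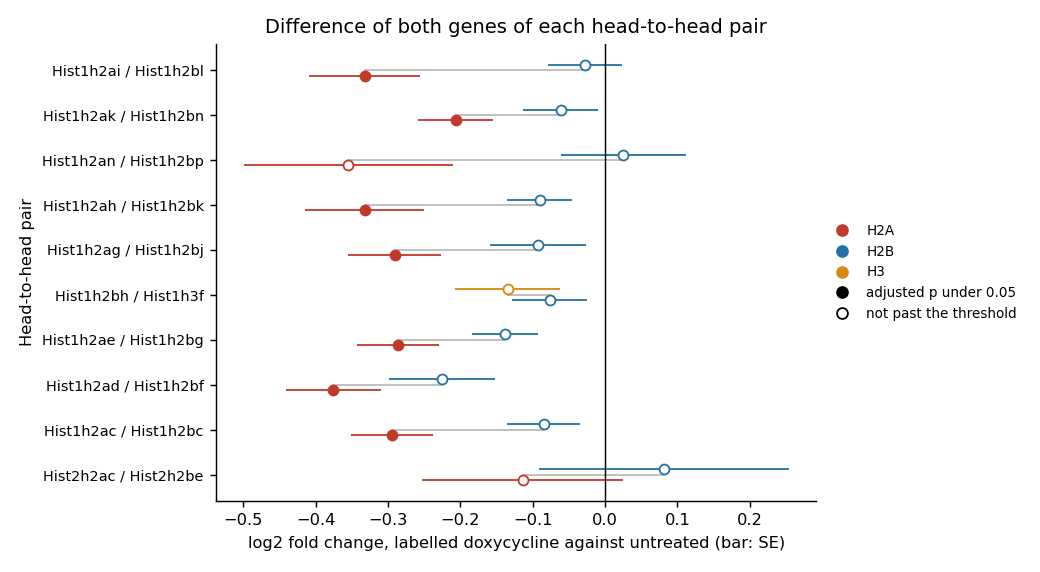
Log2 fold change (x axis, bars are SE) of both genes of each of the 10 head-to-head histone pairs (y axis), joined by a grey line, colored by class and filled where the adjusted p is under 0.05. In the 9 pairs of an H2A with an H2B gene the H2A point lies to the left, by 0.14 to 0.38.

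Promoters are shown for 4 genes because H2A and H2B neighbours share one and the genes past the threshold lie in several groups. The windows run from 250 bases before to 50 after the start as RefSeq gives it (GRCm38.p6), in the direction of the named gene. Capitals mark the letters CCAAT (bound by NF-Y), TATAAA (the TATA box) and ATTTGCAT (the octamer bound by Oct1), each on either strand. Hist1h2ad is chr13:23574131-23574430 on the plus strand and holds the start of Hist1h2bf, Hist1h2ac is chr13:23683910-23684209 on the minus strand, Hist2h3b is chr3:96268404-96268703 on the plus strand and Hist1h4d is chr13:23581318-23581617 on the plus strand.
Hist1h2ad: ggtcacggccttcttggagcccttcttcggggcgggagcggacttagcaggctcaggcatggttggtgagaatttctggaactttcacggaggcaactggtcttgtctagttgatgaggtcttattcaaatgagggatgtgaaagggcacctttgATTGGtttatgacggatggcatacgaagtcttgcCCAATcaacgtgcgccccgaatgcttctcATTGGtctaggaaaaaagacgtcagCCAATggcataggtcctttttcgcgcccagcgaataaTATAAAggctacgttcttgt
Hist1h2ac: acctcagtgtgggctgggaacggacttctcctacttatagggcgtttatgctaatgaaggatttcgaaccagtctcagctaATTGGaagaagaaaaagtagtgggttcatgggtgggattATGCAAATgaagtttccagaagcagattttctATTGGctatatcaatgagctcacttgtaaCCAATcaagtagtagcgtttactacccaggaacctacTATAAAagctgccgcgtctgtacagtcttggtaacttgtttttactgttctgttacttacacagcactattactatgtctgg
Hist2h3b: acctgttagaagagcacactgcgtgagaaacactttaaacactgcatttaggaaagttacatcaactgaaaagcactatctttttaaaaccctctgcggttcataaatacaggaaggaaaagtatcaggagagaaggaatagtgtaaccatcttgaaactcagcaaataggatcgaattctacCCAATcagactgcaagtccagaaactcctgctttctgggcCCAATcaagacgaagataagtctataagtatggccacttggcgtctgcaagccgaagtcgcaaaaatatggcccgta
Hist1h4d: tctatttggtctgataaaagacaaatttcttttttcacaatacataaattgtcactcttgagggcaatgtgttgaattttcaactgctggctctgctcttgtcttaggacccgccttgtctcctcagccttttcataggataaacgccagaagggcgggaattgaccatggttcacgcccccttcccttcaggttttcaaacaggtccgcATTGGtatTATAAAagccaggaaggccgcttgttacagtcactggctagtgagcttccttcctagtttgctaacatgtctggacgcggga

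RefSeq windows were matched to 62 of the 68 genes. CCAAT stood in 53 of them (85.5%), against 37.4% of all 32851 promoters of the same length. It was present in all 6 H1, 18 H2A, 16 H2B and 10 H3 windows and in 3 of 12 H4 windows. TATAAA stood in 56.5% of the histone windows, against 13.6% of all promoters. ATTTGCAT stood in 22.6%, against 1.74% of all, and all 14 such windows belonged to H2A (7) or H2B (7) genes. No motif contains another, and each was counted once per window. Windows of head-to-head neighbours can overlap, as those of Hist1h2ah and Hist1h2bk do, so the same site can be counted in both. Among the 12 genes past the threshold, CCAAT stood in 12, TATAAA in 7 and ATTTGCAT in 3. CCAAT likewise stood in all 16 H2B windows, a class without a called gene.

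Sequence features were set beside these differences. The median GC content of the longest transcript was 65.6% in the 12 called genes, against 55.9% in the 44 tested genes that were not called. The median share of 50-base runs that occur in no other gene was 27.0%, against 59.8%. Across the 56 tested genes the log2 fold change had a Pearson correlation of -0.45 with GC content and of 0.48 with the share of unique runs. These points come from the same 6 libraries, and near-identical genes share reads, so the correlations are a description. GC content was taken from the longest GENCODE transcript of a gene and unique runs from all its transcripts, and these differ in length. The longest had 393 bases in Hist1h2ai and 2482 in Hist1h2ac, which were called. It had 411 in Hist1h3h and 7425 in Hist1h1d, which were not. The part of transcript length in these values was not tested. Within the H2A class the correlations were -0.35 and 0.34 (13 genes), and within H4 they were -0.08 and -0.15 (12 genes). After correcting every library for GC content and length, the medians were -0.28 for H2A and -0.20 for H3, and 12 genes were again lower, 9 of them the same: 6 H2A, 3 H3 and 3 H2B genes. Exons of 23 of the 68 genes, all 18 H2A genes among them, overlap another gene of the GENCODE annotation, and 2 of the 68 (Hist1h2be and Hist3h2a) overlap a gene that the count table holds. The part of shared or overlapping reads in the differences was not tested. Among the called genes, Hist1h2ac and Hist2h2ab had 85.9% and 79.0% of unique runs.

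**Figure D5:**
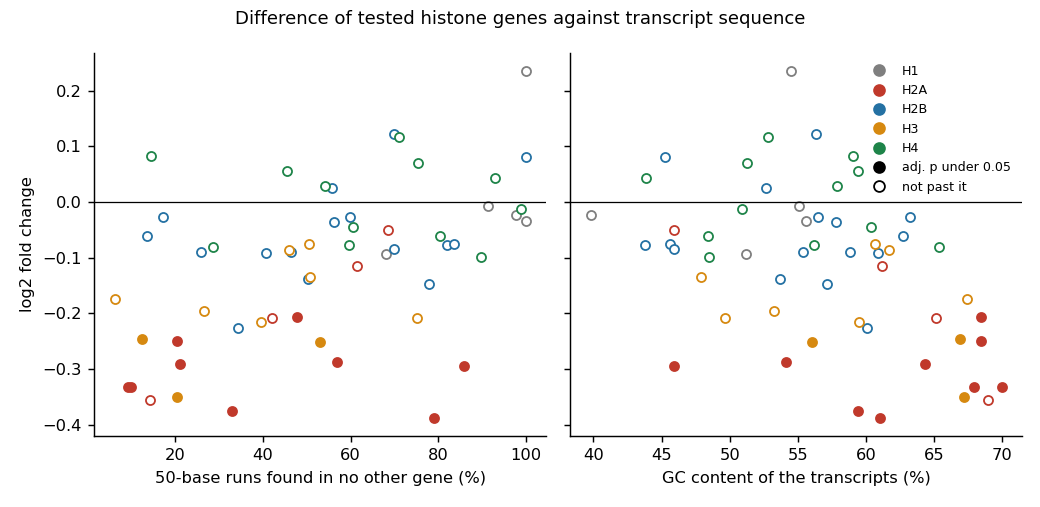
Log2 fold change (y axis) of the 56 tested histone genes against the percentage of their 50-base runs found in no other gene (left) and against the GC content of their longest transcript (right), colored by class and filled where the adjusted p is under 0.05. The filled points span 9.27 to 85.9% of unique runs and 45.9 to 70.0% GC.

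Genes that make, cut or carry histone transcripts were read from lists written with earlier results of these data known. Of 21 tested genes for the 3′ end cut, 0 were called (median log2 fold change 0.02, 1 at an unadjusted edgeR p under 0.05, 0 called by DESeq2). Slbp read 129, 139 and 135 CPM in untreated libraries and 132, 124 and 134 CPM in labelled ones, with overlap. The U7 particle genes Lsm10 and Lsm11 gave log2 fold changes of -0.13 and 0.0096, and Zfp473, which joins that particle, gave 0.21 at 3.39 to 4.48 CPM. Rnu7, the U7 RNA itself, had no count in any library. Of 14 tested genes of the histone locus body and its transcription, 0 were called, with 4 at an unadjusted edgeR p under 0.05, and DESeq2 called 1. The median log2 fold change of that list was 0.03, and 9 of the 14 lay above 0. Gon4l, which encodes a protein of the histone locus body, read 60.2, 62.2 and 59.5 CPM and then 66.1, 76.8 and 68.0 CPM (log2 fold change 0.21 ± 0.06 SE, adjusted p 0.0606 in edgeR). E2f1, a transcription factor of S phase entry, and Hinfp, which binds H4 promoters, gave 0.18 and 0.22 (edgeR adjusted p 0.121 and 0.248). Gon4l, E2f1 and Hinfp were picked from the 14 with their values known, and none of the 3 passed the threshold. In the same list 5 genes lay below 0. Npat, the coactivator of clustered histone genes, read 104, 105 and 107 CPM and then 99.8, 97.7 and 100 CPM without overlap (log2 fold change -0.09, edgeR adjusted p 0.384). Casp8ap2, which is needed for the cut, gave -0.05 without overlap. Among 14 tested genes of histone mRNA translation and decay, edgeR and DESeq2 called 0, with 0 at an unadjusted p under 0.05.

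Variant histone genes outside the clustered symbols, most of which are used throughout the cell cycle with polyadenylated mRNAs, gave 1 call among 9 tested genes, with 4 at an unadjusted edgeR p under 0.05. H2afv, which encodes an H2A.Z variant, was lower, from 24.5 ± 1.96 to 18.6 ± 1.88 CPM (SD, n = 3 each, log2 fold change -0.41 ± 0.09 SE, adjusted p 0.0115 in edgeR), and the call was lost without untreated replicate 1. H3f3a and H3f3b, which encode H3.3, gave -0.12 and -0.15 without overlap and without a call (edgeR adjusted p 0.202 and 0.0763). H2afx, whose product marks broken DNA and whose transcript can also end in a stem-loop without a poly(A) tail, read 373, 416 and 384 CPM and then 316, 316 and 382 CPM, with labelled replicate 3 again inside the untreated range (log2 fold change -0.21, edgeR adjusted p 0.0893). H2afz gave -0.07 and H1f0 0.06, both with overlap. Of 27 tested histone chaperones, edgeR and DESeq2 called 0, with 4 at an unadjusted edgeR p under 0.05.

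The cell cycle lists gave no calls in either direction. Of 45 tested genes of S phase and DNA replication, edgeR and DESeq2 called 0, with 6 at an unadjusted edgeR p under 0.05. Their median log2 fold change was 0.03, and 27 lay above 0. Pcna, the sliding clamp of DNA polymerase, read 283, 276 and 285 CPM and then 286, 276 and 272 CPM, and Ccne2, a cyclin of the entry into S phase, gave -0.08, both with overlap. The sum of the list was 5461 to 5607 CPM in untreated and 5604 to 5693 CPM in labelled libraries. Of 25 tested genes of G2 and mitosis, both tools called 0 as well, with 4 at an unadjusted edgeR p under 0.05 and a median of 0.03. The correction for GC content and length called 4 genes of the S phase list and 1 of the G2 list. The part of cell cycle phase in the histone differences was not tested.

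Other RNAs without a poly(A) tail gave 0 calls among 11 tested genes in edgeR and DESeq2, with 0 at an unadjusted p under 0.05 and a median log2 fold change of -0.04. Rn45s, the largest of them, gave 0.14 (± 0.12 SE, adjusted p 0.647 in edgeR). The identity of the cells was read from 8 epithelial carcinoma markers, all expressed, with sums of 1838 to 1925 CPM in untreated and 1789 to 2023 CPM in labelled libraries. Of these, Krt19, a keratin, was lower (log2 fold change -0.31, edgeR adjusted p 0.00782), while the other 7 had values above 0, up to 0.33 for Cldn7, and none of them passed the test. Of 7 markers of leukocytes, fibroblasts and endothelium, 6 failed the filter, with 0.601 CPM (Pecam1) as their highest value in any library and Col3a1 at 0 in all of them. The fibroblast marker Pdgfra was expressed and lower, from 36.7 ± 1.37 to 27.8 ± 0.67 CPM (SD, n = 3 each, edgeR adjusted p 0.000952). The part of Krt19 or Pdgfra expressing cells in the histone values was not tested.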

How the data were processed

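Raw read counts per gene, deposited by the authors with replicates kept apart and no normalization, were made with bcl2fastq 2.20, STAR and featureCounts of Subread 1.6.2 on mm10 (GRCm38), per the submitters' processing notes. The STAR version, the strand setting and the treatment of multi-mapping reads are not given in the sources used here. Reads of near-identical histone genes can thus be lost or split. Hist1h2be overlaps Hist1h1e, and Hist3h2a overlaps Trim17.

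All 6 columns were matched to samples by library code, and 0 were left over. Of 24421 genes, 6760 had no count and 13084 passed the filterByExpr function of edgeR 4.0.16 (R 4.3.3). Totals of 31653464 to 43631312 counts set the precision. The main test was the edgeR robust quasi-likelihood test with TMM scaling and no term besides the group, adjusted by the Benjamini-Hochberg method at 0.05. Standard errors (SE) were derived from each log2 fold change and its F statistic. The common biological coefficient of variation was 6.04%. The study used DESeq2 and states no version of it. DESeq2 1.42.0 and limma 3.58.1 (voom) were alternatives here, among 18. The procedure was tested on simulated data. No pair of replicates agreed within sampling noise (chi-square per degree of freedom 6.14 to 22.06).

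CPM per kilobase divides CPM by the gene's span and is given only for spans up to 1000 bases. Pair ratios used CPM plus 0.5. Coordinates count from 1, with gene ends from RefSeq and strands from GENCODE. Stem-loops come from GENCODE vM21 transcripts and promoters from RefSeq.

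The histone genes and all lists were chosen with earlier results of these data known. Named were every histone gene past the threshold, the 3 most abundant per kilobase and the extremes of log2 fold change in each class, genes with no count, those next to the filter, and a fixed set of other genes with up to 3 called genes per list. Not every gene the rule allows is reported. Genes outside this rule were also named with their values known, among them Nos2, Cxcl5, Gon4l, E2f1, Hinfp and Hist1h2an.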

Additional observations from a re-analysis of the deposited data

How the results depend on the processing

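Leaving out 1 library moved the number of histone genes called lower from 12 to between 3 and 20, and of those called higher from 0 to between 0 and 1; the other alternatives gave 11 to 18 and 0. The cause was not tested, beyond the smaller number of libraries. The H3 median log2 fold change lay between -0.32 and -0.13 when a library was left out, with -0.32 without doxycycline replicate 3. The H4 sum turned from -0.02 to 0.0072 (log2 ratio) without doxycycline replicate 1. The labels share replicate numbers between groups, but deviations of same-numbered libraries correlated by -0.04 to 0.02, so the numbers were not taken to pair them. With the replicate block 17 histone genes were lower, 12 of them the same, and 1 gene of the list of other RNAs without a poly(A) tail was called.

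Over all genes, 121 were higher and 283 lower. These counts were 210 and 439 with no filter and 432 and 434 with the GC content and length correction, while DESeq2's Wald test gave 185 higher. Leaving out a library gave 44 to 269 higher and 116 to 487 lower. List calls changed by a few genes. Of the histone locus body list, 1 gene was called with no filter, with the DESeq2 Wald test and with the GC content and length correction, and 0 to 1 when a library was left out. For replication-independent histones the count of 1 became 3 with no filter and with the DESeq2 Wald test, 2 with the replicate block and with the GC content and length correction, and 0 to 2 when a library was left out. The GC content and length correction called 1 histone chaperone, 4 S phase genes and 1 G2 gene. Leaving out a library gave 0 to 1 for the S phase, the G2 and the other RNA list.

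Of 32 histone genes named with alternatives, 3 lost their call in an alternative that kept all libraries: Hist1h2ai, Hist1h2ad and Hist1h2ah. Signs turned only in genes that were not called. With the GC content and length correction Hist1h1d gave 0.026. When a library was left out, Hist1h1c ran from -0.074 to 0.041, Hist2h2ac from -0.27 to 0.013, Hist1h2bb from -0.072 to 0.011, Hist3h2bb-ps from -0.047 to 0.26, Hist1h3a from -0.17 to 0.0094, Hist1h4b from -0.033 to 0.12 and Hist3h2ba from -0.40 to 0.061. Of the 12 histone genes that were not tested, 3 had counts too low for the filter and 9 had none; whether depth or shared sequence set those values was not tested.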
